A study of Mus musculus with 9 samples.

Results

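The comparison described here set retinas taken 3 d after optic nerve crush (ONC), treated with a zinc chelator, against uninjured retinas. It used 6 of the 9 libraries of the series, the 3 crushed and TPEN-treated libraries (TPEN) and the 3 libraries from normal eyes (Ctrl). The 3 libraries of crushed eyes given PBS (ONC) were used only to say which changes were also present after crush alone. All mice were C57BL/6J, wild type, of both sexes and 6 to 8 weeks old at surgery. TPEN eyes received 3 μL of 100 μM TPEN into the eye immediately after the crush, and ONC eyes received PBS. No injury or injection was stated for the Ctrl eyes, so crush and injection cannot be told apart within TPEN/Ctrl. Cells were dissociated from the retina and sorted for CD90.2, the product of Thy1, and against 3 other surface proteins. The labels call them primary retinal ganglion cells (RGCs). Separate mice are not stated as the source of replicate libraries, so p-values measure only the spread between these libraries, which may be technical.

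The label was checked against marker genes. Pou4f1, an RGC transcription factor, stood at 0.678, 0.630 and 0.405 RPKM in the Ctrl libraries and at 0.225, 0.231 and 0.268 RPKM in the TPEN libraries, where RPKM is the reads of a gene scaled by its length and by the library total. Rbpms, a further defining RGC gene, lay between 0.246 and 0.688 RPKM across these 6 libraries. The summed level of 12 rod genes was 21984 to 22864 RPKM in Ctrl and 20674 to 20793 RPKM in TPEN, and that of the 14 RGC markers with values was 378 to 388 RPKM in Ctrl and 305 to 317 RPKM in TPEN. The libraries therefore held rod transcripts far above RGC transcripts, and the values below are those of the sorted sample and not of RGCs alone. In such bulk samples fewer cells of a type and less RNA per cell cannot be told apart. The totals worked out from the RPKM steps were 20077226 to 23109754 reads in Ctrl and 19946993 to 22217283 in TPEN. Correlations of log2 values were 0.991 to 0.993 within Ctrl, 0.991 within TPEN and 0.980 to 0.982 between them. The mean chi-square per gene between libraries of a group ran from 2.30 (Ctrl replicates 1 and 2) to 5.20 (Ctrl replicates 2 and 3). Both reads of a pair may partly have been counted, which would raise such values. Agreement within sampling noise therefore cannot be judged from them.

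A crushed optic nerve cuts RGC axons and is followed by activation of microglia and of Müller glia and astrocytes. Reactive glia signal through cytokine receptors of the gp130 family and STAT3, and raise intermediate filament genes such as Gfap, Vim and Nes. Type I and II interferons switch on their target genes through interferon-stimulated response elements (ISREs) and gamma-activated sites (GASs) in promoters. TPEN is a membrane-permeable chelator with high affinity for zinc that also binds other metal ions. Metallothioneins bind zinc and copper, and their genes are switched on by MTF1, a zinc-sensing factor that binds metal response elements (MREs).

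Promoter sequences were taken from RefSeq (GRCm38.p6) for the 3 interferon-response genes with the largest called increase that held an ISRE, and for Mt1. Each runs 5′ to 3′ on the gene's strand from 250 bases before to 50 after the start site. Capitals mark the letters GAAANNGAA on either strand, the ISRE core, in the first 3, and TGCNCNC on either strand, the MRE core, in Mt1. Overlapping matches form 1 run of capitals. They are shown because the interferon-response and metallothionein genes were among the groups that remained raised under chelation.
Gbp2 (chr3:142620413-142620712, plus strand): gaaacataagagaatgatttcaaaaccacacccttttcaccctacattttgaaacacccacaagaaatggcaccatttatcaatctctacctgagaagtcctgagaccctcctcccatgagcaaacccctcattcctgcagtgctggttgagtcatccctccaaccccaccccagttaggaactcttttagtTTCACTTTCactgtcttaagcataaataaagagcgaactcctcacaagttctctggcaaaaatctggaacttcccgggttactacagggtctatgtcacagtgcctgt
Ifit3 (chr19:34583279-34583578, plus strand): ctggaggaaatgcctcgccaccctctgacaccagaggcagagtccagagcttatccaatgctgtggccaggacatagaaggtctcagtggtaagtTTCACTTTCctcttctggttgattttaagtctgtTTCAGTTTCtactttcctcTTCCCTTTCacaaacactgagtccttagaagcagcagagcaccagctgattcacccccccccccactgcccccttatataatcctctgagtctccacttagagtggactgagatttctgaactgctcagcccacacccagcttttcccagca
Gbp3 (chr3:142559794-142560093, plus strand): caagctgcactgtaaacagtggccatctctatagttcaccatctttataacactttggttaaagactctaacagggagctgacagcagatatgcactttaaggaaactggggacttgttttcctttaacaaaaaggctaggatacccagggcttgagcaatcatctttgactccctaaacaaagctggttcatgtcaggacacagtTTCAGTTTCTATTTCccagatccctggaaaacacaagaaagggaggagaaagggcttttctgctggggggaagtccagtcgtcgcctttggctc
Mt1 (chr8:94178839-94179138, plus strand): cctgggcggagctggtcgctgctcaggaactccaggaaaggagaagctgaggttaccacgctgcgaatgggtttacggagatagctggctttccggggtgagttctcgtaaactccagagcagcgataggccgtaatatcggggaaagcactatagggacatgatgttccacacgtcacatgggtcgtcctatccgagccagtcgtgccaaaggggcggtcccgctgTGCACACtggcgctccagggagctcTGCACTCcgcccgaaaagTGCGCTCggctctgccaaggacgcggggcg

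The ISRE letters matched once in Gbp2, 3 times in Ifit3 and 2 times, overlapping, in Gbp3, and the MRE letters matched 3 times in Mt1. Promoters were found for 14 of the 18 interferon-response genes called higher, and 11 of their 17 promoters (64.7%) held the ISRE letters. Of the 468 genes called higher in TPEN/Ctrl, 313 had a promoter in the table. The ISRE letters stood in 10.6% of their promoters, against 6.7% of the promoters of all genes tested and 8.56% of all 32851 promoters in the table. The GAS letters TTCNNNGAA stood in 10.6%, against 6.72% and 8.3%, and the AP-1 letters TGANTCA in 9.84%, against 4.63% and 7.81%. The MRE letters stood in 60.1% of the promoters of the called genes and in the same share, 60.1%, of those of all genes tested, against 51% of all promoters. These shares are a description, and a match of letters is not a binding site.

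Of 13566 genes tested, 468 (3.45%) were upregulated in TPEN/Ctrl and 62 (0.457%) were downregulated, at an adjusted p under 0.05 and a change of at least 1.5-fold in limma with Benjamini-Hochberg adjustment. These are the genes called differentially expressed (DEGs) below. Fold changes are log2 values of RPKM + 0.1, which understate the change of genes with low levels. Increases were also the larger changes: 223 of the upregulated genes reached 2-fold, 42 reached 4-fold and 6 reached 8-fold, whereas 20 of the downregulated genes reached 2-fold and 5 reached 4-fold. Without a statistical threshold, every TPEN library lay above every Ctrl library for 2452 genes (18.1%) and below for 1800 (13.3%). With quantile normalization increases made up 78.5% of the calls against 88.3% without it.

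Most of the increases were also present after crush with PBS. Of the 622 genes called higher in ONC/Ctrl (4.58%), 383 (61.6%) were called higher in TPEN/Ctrl, and these 383 made up all but 85 of the 468. TPEN/Ctrl and ONC/Ctrl share the Ctrl libraries, so the pair of calls is not independent. The median log2 fold change of the 383 was 1.09 in TPEN/Ctrl and 1.45 in ONC/Ctrl. The 383 were chosen by their calls in both pairs, which raises these medians. Over all 622 the median was 0.79 in TPEN/Ctrl and 1.14 in ONC/Ctrl, with 228 not called in TPEN/Ctrl and 11 called lower. The test of the difference itself, TPEN/ONC, called 164 genes lower (1.21%) and 111 higher (0.818%) over all genes. Among the 383 it called 92 lower and 2 higher and left 289 without a call. For 130 of the 383 the TPEN/ONC log2 fold change was within 0.2 of 0. Of the 102 genes called lower in ONC/Ctrl (0.752%), 17 (16.7%) were called lower in TPEN/Ctrl, 84 were not called and 1 was called higher. The median log2 fold change of the 102 was -0.71 in ONC/Ctrl and -0.38 in TPEN/Ctrl. Many of these decreases were thus near the 1.5-fold threshold, and a missing call does not show that a decrease was absent.

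**Figure D1:**
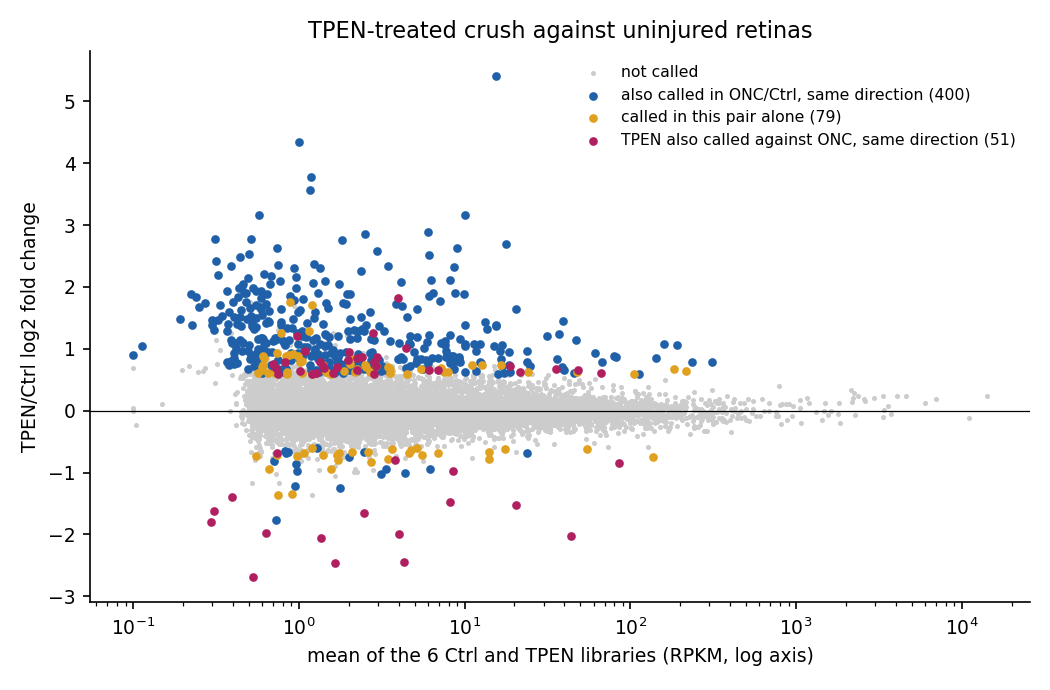
Log2 fold change TPEN/Ctrl of each gene tested against its mean level over the 6 Ctrl and TPEN libraries in RPKM (log axis, values under 0.1 drawn at 0.1). Blue points are the 400 genes also called in ONC/Ctrl in the same direction, and yellow points the 79 called in this pair alone. Magenta points are the 51 others, for which TPEN was also called apart from ONC in the direction of TPEN/Ctrl. Some blue genes were also called in TPEN/ONC. Increases were more numerous and larger than decreases.

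Among genes with a mean of 1 RPKM or more over Ctrl and TPEN and without predicted, Rik or Mir symbols, the 8 largest increases that lay within 0.2 of ONC were Ccl12, S100a10, S100a13, Stat3, Myo10, Bag3, Ahr and Rnd3. Stat3 (chr11:100885098-100939540), the transcription factor downstream of gp130 cytokines, read 3.53, 3.66 and 3.81 RPKM in Ctrl and 13.9, 14.1 and 13.7 RPKM in TPEN. The ONC libraries read 14.6, 14.5 and 14.8 RPKM. All TPEN libraries lay far above all Ctrl libraries and just below the ONC libraries. The log2 fold change was 1.90 ± 0.05 (SE, n = 3 per group) in TPEN/Ctrl, with an adjusted p of 1.17e-08 in limma, and -0.07 ± 0.05 in TPEN/ONC. Ahr, a ligand-activated transcription factor, read 7.33, 7.03 and 7.01 RPKM in Ctrl and 19.4, 19.5 and 19.3 RPKM in TPEN, with ONC at 19.9 to 21.0. Myo10, an unconventional myosin of filopodia, rose by 1.65 ± 0.03 in TPEN/Ctrl. Its TPEN libraries, at 30.6 to 31.1 RPKM, lay below its ONC libraries, at 34.9 to 35.5 RPKM, without overlap, a difference of -0.19 ± 0.03 with an adjusted p of 0.00643 in limma.

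S100a10, the partner of annexin A2, read 2.87, 2.64 and 3.53 RPKM in Ctrl and 13.5, 12.3 and 14.1 RPKM in TPEN, and the TPEN and ONC libraries overlapped. S100a13, a further small calcium-binding protein, rose by 1.90 ± 0.19. Bag3, a co-chaperone, and Rnd3, an atypical small GTPase, rose by 1.49 ± 0.18 and 1.40 ± 0.23. Ccl12, a monocyte-attracting chemokine, read 0, 0 and 0.371 RPKM in Ctrl and 2.14, 2.68 and 1.87 RPKM in TPEN. These were 4 reads in all in Ctrl against 75 in TPEN, so its log2 fold change of 3.78 ± 0.52 rests on few reads in Ctrl and depends on the pseudocount.

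**Figure D2:**
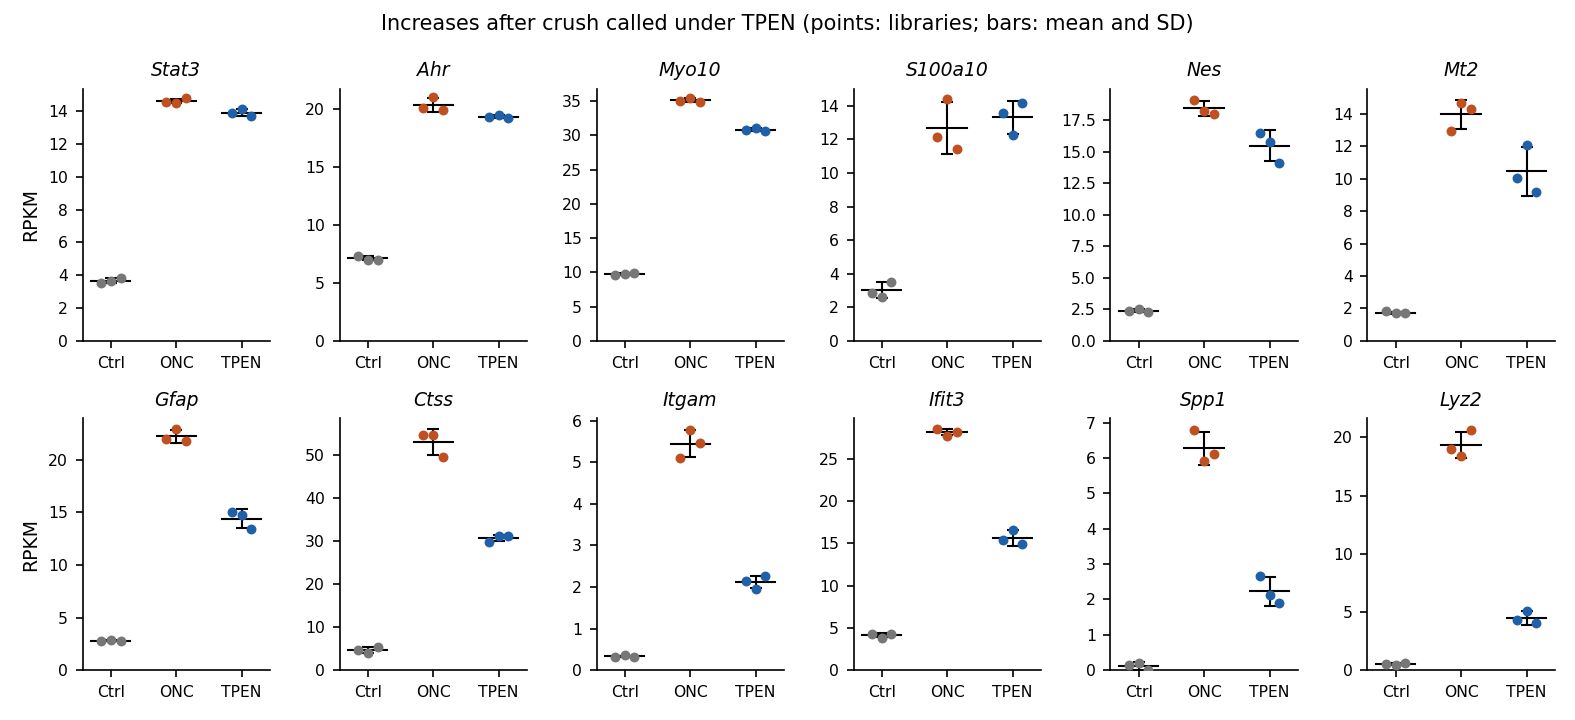
Level in RPKM (linear axes from 0) of 12 genes called higher in TPEN/Ctrl and in ONC/Ctrl. Points are the 3 libraries of each group and bars the mean and SD. For Stat3, Ahr and S100a10 the TPEN mean was near the ONC mean, whereas for Lyz2 and Spp1 it lay between Ctrl and ONC.

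Reactive glia genes remained raised. Of 20 listed genes 15 passed the filter on low values, and 13 of these were called higher and none lower, against the background of 3.45% and 0.457%. Their median log2 fold change was 1.73, against 0.01 over all genes. Lcn2, Lif and Ednrb had values but did not pass the filter. Lcn2 went the other way, with 20, 20 and 16 reads in Ctrl, 36, 38 and 37 in ONC and 9, 8 and 6 in TPEN. Lif had 11 reads over the Ctrl libraries and 80 over the TPEN libraries, and Ednrb had 20 and 65. Nes, an intermediate filament gene of progenitors and reactive Müller glia, read 2.37, 2.56 and 2.29 RPKM in Ctrl and 16.5, 15.8 and 14.1 RPKM in TPEN, a log2 fold change of 2.64 ± 0.07. Gfap (chr11:102887336-102900912), the astrocyte filament that Müller glia also make after injury, read 2.73, 2.83 and 2.80 RPKM in Ctrl and 15.1, 14.8 and 13.4 RPKM in TPEN. Groups did not overlap for either gene. Gfap was lower in TPEN than in ONC by a log2 fold change of -0.62 ± 0.05, and 4 of the 15 genes were called lower in TPEN/ONC. Serpina3n, a secreted protease inhibitor of reactive astrocytes, rose by 2.62 ± 0.22 and Osmr, the oncostatin M receptor subunit that pairs with gp130, by 1.90 ± 0.15. Edn2, a peptide that photoreceptors release under stress, rose by 2.11 ± 0.11, with TPEN at 9.82 to 11.2 RPKM and ONC at 20.8 to 24.2 RPKM.

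Microglia and macrophage genes also remained raised, at lower levels than in ONC. Of 20 listed genes 16 passed the filter and all 16 were called higher in TPEN/Ctrl, while 9 of them were called lower in TPEN/ONC. The filter took the mean over the 9 libraries, so genes such as Cd14 and Fcrls passed it through the crushed groups. The count of all 16 was thus partly set by the filter. TPEN/ONC called 6 or 7 of the 16 lower when an ONC or TPEN library was left out. With a pseudocount of 1 RPKM 10 of the 16 were called higher, and with quantile normalization 13. Their median log2 fold change was 1.88 in TPEN/Ctrl and 2.91 in ONC/Ctrl. Ctss, the lysosomal protease cathepsin S, read 4.73, 4.05 and 5.32 RPKM in Ctrl and 29.9, 31.1 and 31.2 RPKM in TPEN. Itgam, the integrin subunit CD11b, read 0.322, 0.353 and 0.320 RPKM in Ctrl and 2.15, 1.96 and 2.26 RPKM in TPEN, with ONC at 5.10 to 5.77. Each of these groups was apart from the other two. Lyz2, the lysozyme of macrophages and neutrophils, rose by 2.86 ± 0.14 in TPEN/Ctrl and stood lower in TPEN/ONC by a log2 fold change of -2.09 ± 0.14. The Ctrl levels were low, since Fcrls had 10 reads and Cd14 had 4 reads over the 3 Ctrl libraries together. Reads of Itgam and Lyz2 are uncertain, because 68.3% and 32.8% of their 31-base words also stood in another gene.

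The summed level of the 19 microglia and macrophage genes with values was 13.3 to 14.2 RPKM in Ctrl, 62.6 to 64.8 RPKM in TPEN and 120 to 124 RPKM in ONC. The neutrophil list had 1 gene above the filter, which was not called, and its summed level was 0.264 to 0.562 RPKM in TPEN. None of the 9 T cell genes had a value in the files as analysed here. The part of a changed number of microglia or macrophages in the groups below was not tested.

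Complement genes split into a group that rose and a group that did not pass the test. Of 12 that passed the filter, of 19 listed, 7 were called higher and none lower, with a median of 1.65. C1qa, the first subunit of C1q, read 0.601, 0.583 and 1.25 RPKM in Ctrl and 4.81, 4.93 and 5.50 RPKM in TPEN, and C1qb and C1qc rose with it by 2.26 ± 0.23 and 1.99 ± 0.27. C4b, a component of the classical pathway, rose by 2.09 ± 0.15 and was -0.22 ± 0.15 from ONC. C3, the component at which all complement pathways meet, was not called, with 0.370, 0.254 and 0.331 RPKM in TPEN against 0.139, 0.202 and 0.174 RPKM in Ctrl and 1.37 to 1.96 RPKM in ONC. Its log2 fold change of 0.62 ± 0.19 became -0.19 with quantile normalization.

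Interferon-response genes were raised broadly. Of 36 listed genes 23 passed the filter, and 18 of them were called higher in TPEN/Ctrl and none lower, with a median log2 fold change of 1.18. ONC/Ctrl called 22 of the 23 higher, with a median of 1.74, and TPEN/ONC called 11 lower. Ifit3, an antiviral effector whose promoter is shown above with 3 ISRE matches, read 4.30, 3.84 and 4.34 RPKM in Ctrl and 15.4, 16.6 and 14.9 RPKM in TPEN. The ONC libraries read 27.7 to 28.5 RPKM, so the groups were apart and TPEN lay between. Gbp3, a guanylate-binding GTPase, rose by 1.64 ± 0.07 in TPEN/Ctrl and stood at -1.16 ± 0.07 in TPEN/ONC. Gbp2, of the same family, rose by 2.10 ± 0.20 and was not called in TPEN/ONC, at -0.56 ± 0.20. When tested against a change of 1.5-fold, in place of against no change, 6 of the 23 were called higher in TPEN/Ctrl. With a pseudocount of 1 RPKM 11 were. TPEN/ONC called 6 to 8 of the 23 lower when an ONC or TPEN library was left out, and 1 when tested against 1.5-fold.

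Genes of MHC class I presentation followed. Of 12 that passed the filter, of 15 listed, 7 were called higher, with a median of 0.71, and 3 with a pseudocount of 1 RPKM. H2-K1, a classical class I heavy chain, rose by 1.09 ± 0.08 from 2.65 to 3.13 RPKM in Ctrl to 5.82 to 6.80 RPKM in TPEN, and B2m, the light chain, rose by 1.52 ± 0.24. The class I heavy chain genes resemble each other, so the split of reads between them is uncertain. Of 12 cell death genes that passed the filter, of 23 listed, 2 were called higher. They were Casp8, the initiator caspase of death receptors, and Ripk1, its partner kinase. Neither was called with a pseudocount of 1 RPKM. Casp8 read 0.0925, 0.224 and 0.0861 RPKM in Ctrl and 0.692, 0.638 and 0.676 RPKM in TPEN. Cdkn1a, Pmaip1, Nlrp3, Hrk, Pycard and Gsdmd had values but did not pass the filter. Over the 3 Ctrl and the 3 TPEN libraries Cdkn1a had 7 and 71 reads, Pmaip1 2 and 27 and Nlrp3 27 and 64. Hrk had 123 and 160, Pycard 18 and 39 and Gsdmd 14 and 27.

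Several chemokine genes and genes of repair-type macrophages stood lower in TPEN than in ONC. Of 12 chemokines and cytokines that passed the filter, of 25 listed, 4 were called higher in TPEN/Ctrl, namely Ccl3, Ccl6, Ccl12 and Il1a. In TPEN/ONC 5 were called lower. This TPEN/ONC count was 3 or 4 when an ONC or TPEN library was left out, and 3 when tested against 1.5-fold. Of 8 genes of repair-type macrophages that passed the filter, of 21 listed, 5 were called higher in TPEN/Ctrl (Arg1, Thbs1, Fn1, Spp1 and Gpnmb). Of these, Thbs1 stood at -0.30 with quantile normalization. The ONC level of all 8 was called above both Ctrl and TPEN. The filter took the mean over the 9 libraries, so a gene such as Saa3, without reads in Ctrl or TPEN, passed only through ONC. That count was thus partly set by the filter. TPEN/ONC called 6 or 7 of the 8 lower when an ONC or TPEN library was left out, and 5 when tested against 1.5-fold. With a pseudocount of 1 RPKM 2 of the 8 were called higher in TPEN/Ctrl and with quantile normalization 3, and Thbs1 also lost its call when most single libraries were left out. Spp1, the secreted protein osteopontin, read 0.135, 0.210 and 0 RPKM in Ctrl and 2.67, 2.13 and 1.89 RPKM in TPEN, with ONC at 5.92 to 6.78 RPKM. Arg1, the arginase of repair-type macrophages, read 0.332, 0.264 and 0.236 RPKM in Ctrl and 1.05, 1.13 and 0.951 RPKM in TPEN, with ONC at 38.8 to 39.3 RPKM. The TPEN level of Arg1 was thus above Ctrl by a log2 fold change of 1.60 ± 0.11 and below ONC by one of -5.10 ± 0.11.

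Some acute inflammatory genes were not called in TPEN/Ctrl. Saa3, an acute-phase protein, had no reads in any Ctrl or TPEN library, which allows up to 3 reads per library, and read 5.81 to 6.77 RPKM in ONC. Cxcl2, a neutrophil-attracting chemokine, read 0.145, 0.131 and 0.0970 RPKM in TPEN and 3.66 to 4.19 RPKM in ONC. Il1b, the cytokine interleukin-1 beta, read 0.262, 0.283 and 0.237 RPKM in TPEN and 1.90 to 2.08 RPKM in ONC. Both had log2 fold changes in TPEN/Ctrl that were positive as reported, at 0.69 and 0.65, and negative with quantile normalization, at -0.28 and -0.31. Hmox1, the haem-degrading enzyme, read 1.69, 2.01 and 1.89 RPKM in TPEN against 1.14 to 1.26 RPKM in Ctrl. Its log2 fold change of 0.58 ± 0.09 had an adjusted p of 0.00165 in limma and stayed just under 1.5-fold.

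**Figure D3:**
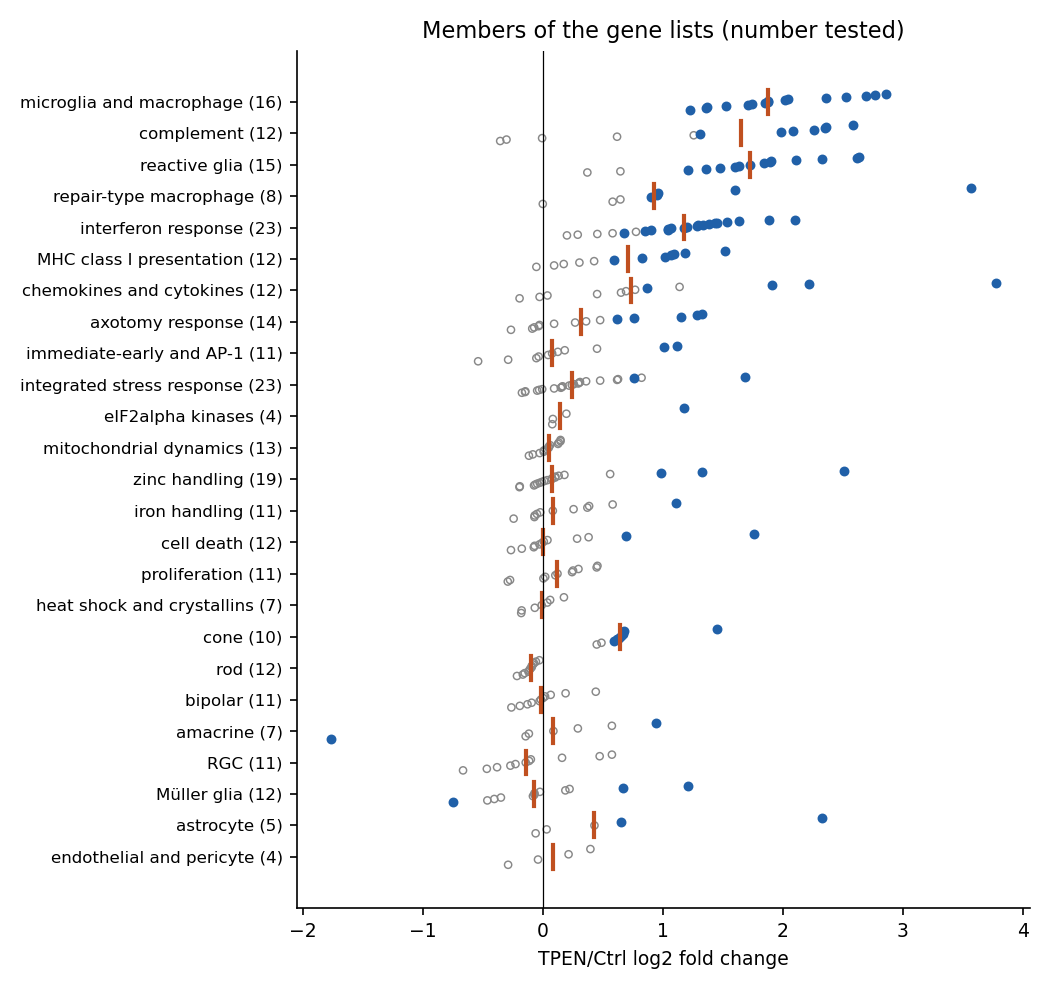
Log2 fold change TPEN/Ctrl of the members of 25 gene lists that passed the filter, with the number tested after each name. Filled points were called at an adjusted p under 0.05 and 1.5-fold, open points were not, and the bar is the list's median. The microglia and macrophage list had all 16 tested members called, a count partly set by the filter, and the rod list had none of 12.

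Among genes of zinc handling only the metallothioneins were called. Of 19 tested genes 3 were higher and none lower, with a median of 0.07. Mt2 read 1.82, 1.69 and 1.69 RPKM in Ctrl and 10.04, 12.1 and 9.21 RPKM in TPEN, with ONC at 12.9 to 14.7 RPKM. Its log2 fold change was 2.51 ± 0.10 in TPEN/Ctrl and -0.42 ± 0.10 in TPEN/ONC, the latter with an adjusted p of 0.0289 in limma and under 1.5-fold. Mt1, with 3 MRE matches in the promoter above, rose by 1.32 ± 0.30, and Mt3, the neuronal form, by 0.98 ± 0.27. Mt3 lost its call with quantile normalization, voom or a pseudocount of 1 RPKM, and without any one of the 3 Ctrl libraries, ONC replicate 2 or TPEN replicate 2 or 3. Mt1 lost its call without TPEN replicate 1 or 2, and 1 of the 19 genes was called without TPEN replicate 2. Slc30a1, the zinc exporter that is a classical MTF1 target, was not called, at 0.18 ± 0.08. Mt2 overlaps RP23-98C9.5 and shares 58.1% of its 31-base words with other genes, so its reads are uncertain. Among 11 genes of iron handling Trf, the iron carrier transferrin, was the one called, at 1.11 ± 0.07, and 2 were called without Ctrl replicate 1, Ctrl replicate 2 or TPEN replicate 1.

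Among Oma1, Opa1, Yme1l1, Dnm1l, Atf4 and Eif2ak1 to Eif2ak4, which the study follows as protein or transcript, Eif2ak2 was the one called. Oma1, the mitochondrial protease, read 3.14, 4.38 and 4.04 RPKM in Ctrl and 3.62, 3.25 and 3.69 RPKM in TPEN, and the groups overlapped. Its log2 fold change was -0.12 ± 0.12, with an adjusted p of 0.605 in limma. Opa1, the inner membrane fusion protein that OMA1 cleaves, was at 0.15 ± 0.05, and Yme1l1 and Dnm1l were each at 0.01 ± 0.06, with a sign that turned in several alternatives. None of the 13 genes of mitochondrial dynamics was called. Of the 4 kinases of the translation factor eIF2α, Eif2ak2 (PKR), which belongs to the interferon-response list, rose by 1.18 ± 0.12. It had 138, 183 and 130 reads in Ctrl, 571, 681 and 714 in ONC and 293, 365 and 341 in TPEN. Eif2ak2 was also the 1 kinase gene called lower in TPEN/ONC. Eif2ak1 (HRI), Eif2ak3 (PERK) and Eif2ak4 (GCN2) stood at 0.08 ± 0.08, 0.08 ± 0.04 and 0.20 ± 0.07 and were not called.

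Atf4, the transcription factor of the integrated stress response, read 115, 119 and 114 RPKM in Ctrl and 134, 137 and 135 RPKM in TPEN, with ONC at 135 to 137 RPKM. All TPEN libraries lay above all Ctrl libraries and overlapped ONC. The change of 0.22 ± 0.02 had an adjusted p of 0.000281 in limma and was under 1.5-fold. Of 23 tested genes of this response 2 were called higher, against a background of 3.45%, namely Atf3 at 0.76 ± 0.06 and Nupr1 at 1.69 ± 0.13. The count was 3 without Ctrl replicate 1 or 2 and 4 without Ctrl replicate 3. ONC/Ctrl called 8 of the 23 higher, with a median of 0.45 against 0.24 in TPEN/Ctrl. Atf3 also belongs to the axotomy-response list, of whose 14 tested genes 5 were called higher. Only 3 of the 14 were called without Ctrl replicate 1 or without TPEN replicate 1, and 1 when tested against a change of 1.5-fold. Among the 5 were Gap43, a growth cone protein, which rose by 1.32 ± 0.04 from 7.78 to 7.79 RPKM in Ctrl to 19.4 to 20.01 RPKM in TPEN, and Stmn4, a microtubule regulator, which rose by 1.15 ± 0.13. Of 11 immediate-early and AP-1 genes that passed the filter, of 16 listed, Fosl1 and Junb were called, at 1.01 ± 0.12 and 1.12 ± 0.11. Fosl2, Arc and Npas4 had values but did not pass the filter. Fosl2 had 9, 6 and 2 reads in Ctrl, 38, 55 and 47 in ONC and 44, 52 and 42 in TPEN. Arc had 48 reads over the Ctrl libraries and 77 over the TPEN libraries, and Npas4 had 37 and 73. Fosb read 5.08, 4.68 and 4.72 RPKM in TPEN against 6.77 to 7.30 RPKM in Ctrl, a log2 fold change of -0.54 ± 0.06 that was under 1.5-fold.

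Few of the decreases after crush were called under TPEN. Among genes that averaged 1 RPKM or more and had no predicted or Rik symbol, the 6 largest decreases of the 17 were Tmem151b, Ciart, Panx2, Scrt1, Dlgap3 and Mcm10. Panx2, a large-pore channel of neurons, read 5.99, 5.78 and 5.90 RPKM in Ctrl and 3.02, 2.86 and 2.74 RPKM in TPEN, with ONC at 2.56 to 3.79 RPKM. TPEN was below Ctrl in every library and overlapped ONC. Dlgap3, a scaffold protein of the synapse, fell by 0.94 ± 0.10 on the log2 scale, and Scrt1, a neuronal transcriptional repressor, fell by 0.94 ± 0.08. Ciart, a repressor of the circadian clock, read 3.81, 4.25 and 4.58 RPKM in Ctrl and 2.12, 2.03 and 1.91 RPKM in TPEN. Mcm10, a replication factor, and Tmem151b, a membrane protein, changed by -0.67 ± 0.09 and -1.25 ± 0.16. Tmem151b overlaps Tcte1. Pvalb and Shank3 averaged less than 1 RPKM, had larger decreases than most of these, and were chosen after their values were seen. Pvalb, a calcium buffer of AII amacrine cells, read 0.771, 1.37 and 1.34 RPKM in Ctrl and 0.0961, 0.346 and 0.433 RPKM in TPEN, and Shank3, a synaptic scaffold, changed by -1.22 ± 0.16.

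In 34 genes not called higher in ONC/Ctrl, TPEN was called higher than both Ctrl and ONC, and 6 of these were cone genes. Cones detect colour in daylight with opsins, a transducin, a phosphodiesterase and a cyclic-nucleotide-gated channel that differ from those of rods. All 10 listed cone genes passed the filter, 8 were called higher in TPEN/Ctrl, 8 in TPEN/ONC and 6 in both, namely Opn1sw, Opn1mw, Gnat2, Pde6c, Pde6h and Cnga3. Their median log2 fold change was 0.64 in TPEN/Ctrl and 0.76 in TPEN/ONC, and -0.15 in ONC/Ctrl, where 1 of 10 was called.

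Pde6c (chr19:38132781-38183947), the catalytic subunit of the cone phosphodiesterase, read 27.8, 27.6 and 26.1 RPKM in Ctrl and 43.1, 42.9 and 44.9 RPKM in TPEN, with ONC at 21.8 to 23.1 RPKM. Gnat2 (chr3:108092789-108101432), the cone transducin, read 38.1, 38.2 and 35.5 RPKM in Ctrl and 58.3, 60.5 and 58.7 RPKM in TPEN. Opn1sw, the short-wave opsin, read 17.2, 16.6 and 17.0 RPKM in Ctrl and 25.3, 26.8 and 26.8 RPKM in TPEN. In these 3 genes every TPEN library lay above all others, with adjusted p of 3.54e-06, 7.18e-05 and 9.57e-06 in limma. Arr3, cone arrestin, had a smaller change of 0.45 ± 0.03 in TPEN/Ctrl that was not called, and read 55.1 to 55.7 RPKM in TPEN against 40.1 to 41.3 RPKM in Ctrl. Gnb3, the transducin beta subunit shared by cones and ON bipolar cells, differed from the others: it rose by 1.46 ± 0.05 in TPEN/Ctrl and by 1.67 ± 0.05 in ONC/Ctrl.

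Of the 23 genes of a phototransduction list, which shares members with the cone and rod lists, 6 were called higher and none lower. The changes of the cone genes were near 1.5-fold, and their calls depended on it. When tested against a change of 1.5-fold, 1 of 10 was called, and 6 to 8 were called when single libraries were left out. Cnga3 lost its call without Ctrl replicate 1 or 2 or TPEN replicate 2 or 3, and 5 of the 10 were called with a pseudocount of 1 RPKM. Rod genes differed less. None of 12 was called, all 12 had log2 fold changes below 0, with a median of -0.10, and in 11 of them every TPEN library was below every Ctrl library, against 13.3% of all genes tested. Pde6b, a rod phosphodiesterase subunit, read 874, 869 and 862 RPKM in Ctrl and 751, 749 and 745 RPKM in TPEN. The summed level of the 10 cone genes was 160 to 167 RPKM in Ctrl, 189 to 198 in ONC and 272 to 274 in TPEN. Whether the share of cones in the sorted cells differed was not tested.

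**Figure D4:**
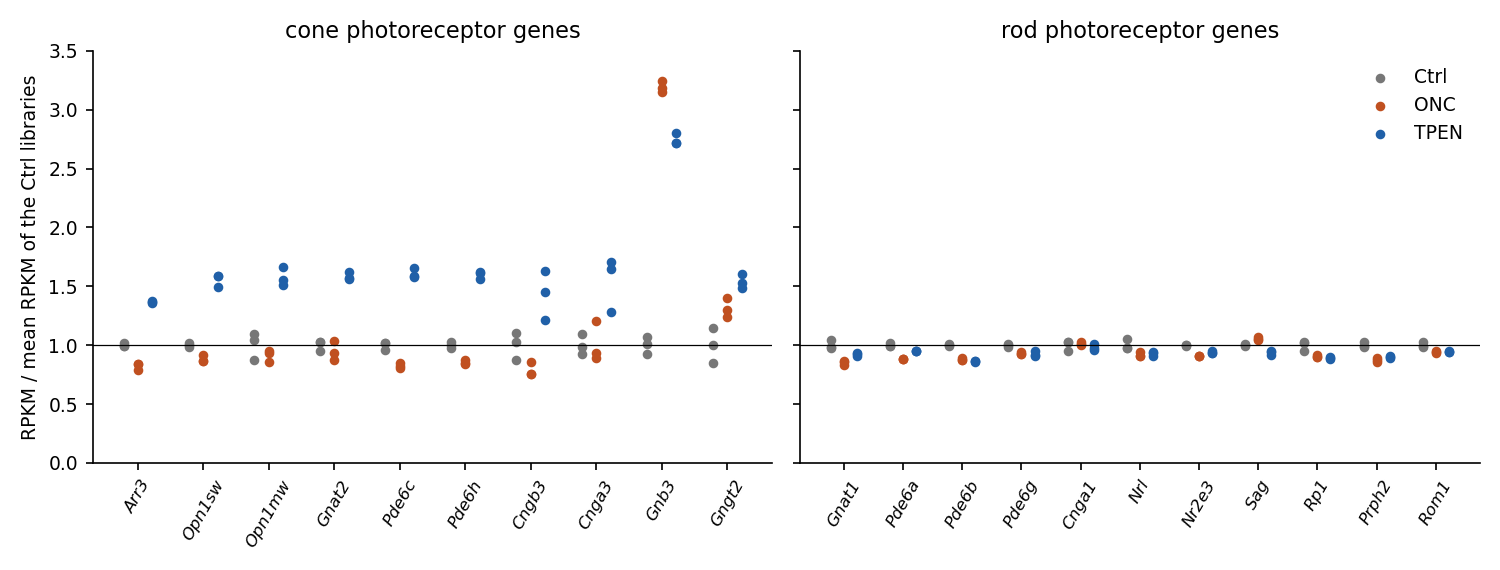
Level of 10 cone genes (left) and 11 of the 12 rod genes (right) in each of the 9 libraries, divided by the gene's mean in Ctrl (linear axis, the line marks 1). The TPEN libraries lay above the Ctrl libraries in all 10 cone genes, and Gnb3 was also high in ONC. The rod genes stayed near 1 in all groups.

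The other named genes of this kind were Hbb-bs, Hkdc1, Grik3, Tfap2c, Lamp5 and Adrb1. Hkdc1, a hexokinase-like enzyme, read 1.59, 1.80 and 1.45 RPKM in Ctrl and 3.82, 3.999 and 4.06 RPKM in TPEN, with ONC at 1.99 to 2.29 RPKM. It rose by 1.25 ± 0.10 in TPEN/Ctrl and 0.86 ± 0.10 in TPEN/ONC. Grik3, a kainate receptor subunit, read 0.696, 0.665 and 0.744 RPKM in Ctrl and 1.41, 1.45 and 1.53 RPKM in TPEN. Tfap2c, a transcription factor of amacrine cells, read 1.44, 1.20 and 1.38 RPKM in Ctrl and 3.03, 2.67 and 2.34 RPKM in TPEN. Lamp5, a membrane protein of neurons, and Adrb1, the beta-1 adrenergic receptor, rose by 0.85 ± 0.14 and 0.83 ± 0.17. In all 6 the TPEN libraries stood above every Ctrl and ONC library.

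Of the amacrine markers, 7 of 12 passed the filter, 1 was called higher (Tfap2c; 2 without TPEN replicate 3) and 1 lower (Pvalb), and their summed level was 57.3 to 59.2 RPKM in Ctrl and 58.4 to 61.3 RPKM in TPEN. Hbb-bs, an adult beta-globin, read 1.98, 1.13 and 2.08 RPKM in Ctrl and 6.65, 6.15 and 5.74 RPKM in TPEN. It shares 54.4% of its 31-base words with Hbb-bt. Globin transcripts mark red blood cells, and the amount of blood in the samples was not tested.

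In 17 genes TPEN was lower than both other groups. Of these, 14 were predicted genes, and 10 of the 16 with a transcript in the annotation shared at least 50% of their 31-base words with other genes, against 5 of 56 other named genes. The reads of such near copies cannot be assigned with certainty. Gm10800 (chr2:98666547-98667301) read 71.0, 70.9 and 68.7 RPKM in Ctrl, 349, 365 and 325 RPKM in ONC and 16.5, 17.3 and 18.1 RPKM in TPEN. Gm10718 read 6.16 to 8.51 RPKM in Ctrl, 32.7 to 37.9 in ONC and 1.12 to 1.33 in TPEN. Of the 622 genes called higher in ONC/Ctrl, 11 were called lower in TPEN/Ctrl, and both of these were among them. The 3 groups were apart for both genes. Gm26870, which overlaps Gm10718 and 3 more of them, changed by -2.46 ± 0.14.

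Non-coding RNAs that carry no poly(A) tail were part of this group. Rn7s1, a gene of the 7SL RNA of the signal recognition particle, read 12.2, 13.3 and 10.3 RPKM in Ctrl, 10.3 to 11.3 RPKM in ONC and 3.00, 5.70 and 4.34 RPKM in TPEN. It overlaps AC099934.2, which changed by -1.53 ± 0.24, and all its 31-base words recur in other genes. The gene n-R5s154, a 5S ribosomal RNA gene, read 11.2, 10.8 and 11.5 RPKM in Ctrl and 4.17, 5.83 and 7.43 RPKM in TPEN, and was not called in voom.

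In 51 genes the increase and in 28 genes the decrease was called in TPEN/Ctrl alone, that is, neither in ONC/Ctrl nor in TPEN/ONC. All 51 had a positive log2 fold change in ONC/Ctrl, with a median of 0.39 against 0.70 in TPEN/Ctrl, and 15 of them had an adjusted p under 0.05 there. All 28 had a negative one. TPEN/ONC had an adjusted p under 0.05, below 1.5-fold, for 11 of the 51 and 5 of the 28, so for most of these genes the call does not set TPEN apart from ONC.

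Itga4, the alpha-4 integrin subunit, read 12.3, 12.8 and 12.005 RPKM in Ctrl, 17.6 to 18.2 RPKM in ONC and 20.3, 21.0 and 21.0 RPKM in TPEN. All groups were apart, and its log2 fold changes were 0.74 ± 0.04 in TPEN/Ctrl and 0.53 ± 0.04 in ONC/Ctrl. Nrcam, a neuronal adhesion protein, rose by 0.75 ± 0.11, Pvr, a nectin-like adhesion protein, by 0.81 ± 0.15, and Elovl5, a fatty acid elongase, by 0.74 ± 0.13. Hba-a1, an alpha-globin with near copies, read 0.220, 0.853 and 0.491 RPKM in Ctrl and 2.46, 2.16 and 0.988 RPKM in TPEN. Hba-a1, Dusp6, a phosphatase of ERK, Gng11, a G-protein gamma subunit, and Bmp7, a growth factor, rose by 1.71 ± 0.40, 1.29 ± 0.33, 0.86 ± 0.20 and 0.79 ± 0.22. Each of these 4 lost its call when Ctrl replicate 3 or TPEN replicate 1 was left out.

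Glul, the glutamine synthetase of Müller glia, fell from 174, 169 and 175 RPKM in Ctrl to 100.01, 102 and 107 RPKM in TPEN, with ONC at 116, 116 and 116 RPKM. Its change of -0.75 ± 0.03 in TPEN/Ctrl was called. The one of -0.57 ± 0.03 in ONC/Ctrl was just under 1.5-fold, and TPEN stood below ONC by -0.18 ± 0.03. Of 12 Müller glia genes Clu and Vim were called higher and Glul lower, and Rlbp1, the retinaldehyde-binding protein, read 92.2 to 97.9 RPKM in TPEN against 122 to 129 RPKM in Ctrl without reaching 1.5-fold. Cdo1, the cysteine dioxygenase, changed by -0.83 ± 0.15, Fam107a, an actin-associated protein, by -0.71 ± 0.14, and Camk2a, the synaptic calcium kinase, by -0.68 ± 0.12. Cmc2, a mitochondrial protein, changed by -0.71 ± 0.17 and lost its call without any one of the 3 Ctrl libraries. The pseudogene Usf2-ps1 changed by -0.72 ± 0.12, and 87.2% of its words stand in other genes, most of them in Usf2. It was not called in voom.

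**Figure D5:**
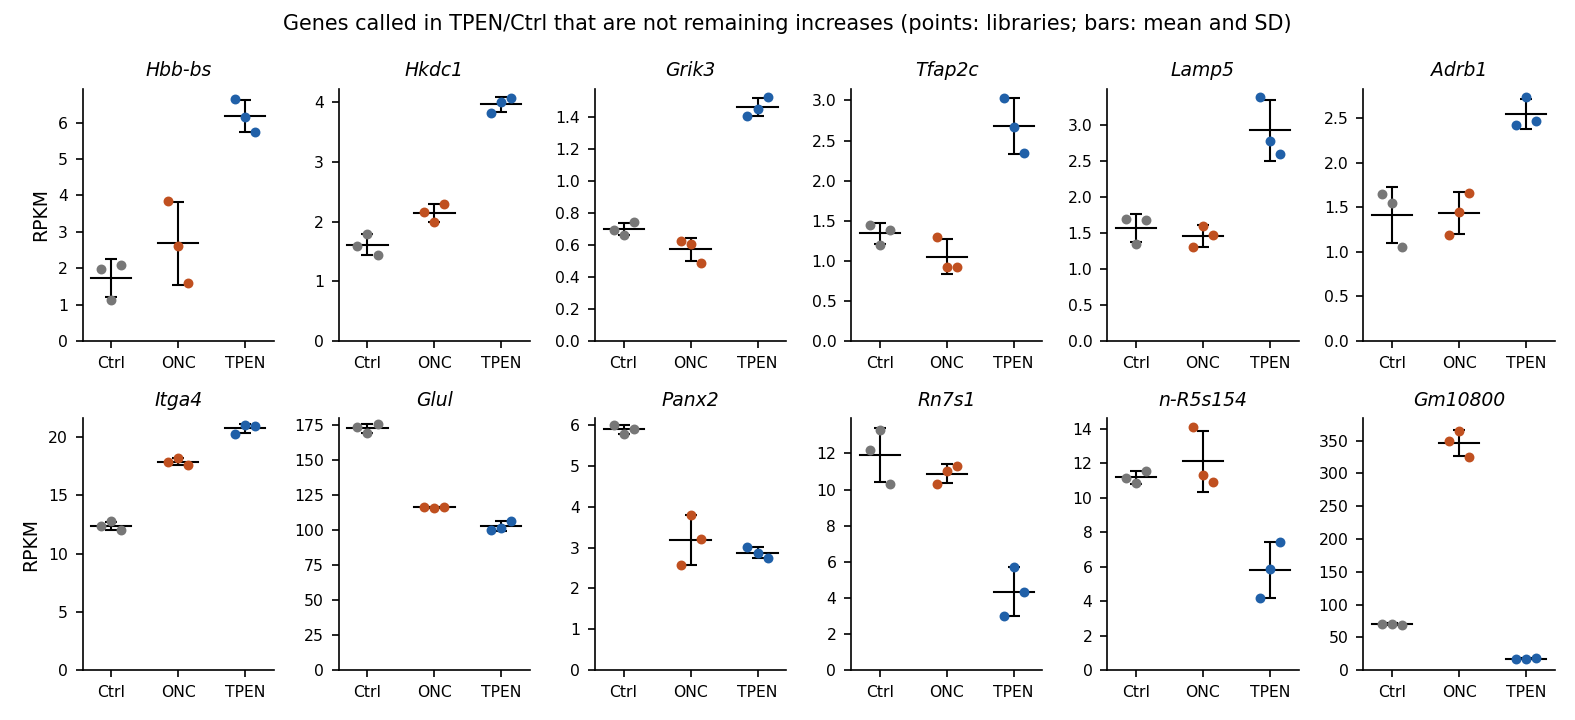
Level in RPKM (linear axes from 0) of 12 genes called in TPEN/Ctrl. Points are the 3 libraries of each group and bars the mean and SD. The upper row has genes with TPEN above both other groups, and the lower row has Itga4 and Glul, called in this pair alone, Panx2, a remaining decrease, and Rn7s1, n-R5s154 and Gm10800, with TPEN below both.

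Of 17 listed RGC markers 11 passed the filter and none was called as tested here, with a median log2 fold change of -0.14 in TPEN/Ctrl. In the alternatives 1 gene was called lower with quantile normalization, and 1 was called higher without Ctrl replicate 2 or without TPEN replicate 1. Pou4f1 and Rbpms did not pass the filter, so the test does not cover them. Pou4f1 had 177 reads over the 3 Ctrl libraries and 70 over the 3 TPEN libraries, and Rbpms had 159 and 79. For both genes every TPEN library was below every Ctrl library. The ONC libraries had 18, 8 and 33 reads of Pou4f1, against 21, 24 and 25 in TPEN. For Rbpms they had 35, 41 and 33, against 21, 22 and 36 in TPEN, so TPEN and ONC overlapped for both genes. Rbpms2, a close relative of Rbpms that was tested, had 119 reads in Ctrl and 66 in TPEN and was not called. Nefl, the light neurofilament, read 260, 254 and 259 RPKM in Ctrl and 206, 193 and 195 RPKM in TPEN, with ONC at 256 to 271 RPKM, a log2 fold change of -0.38 ± 0.03. Nefh, the heavy neurofilament, was at -0.47 ± 0.04. Thy1, the gene of the sorted protein, read 4.54 to 4.96 RPKM in Ctrl and 6.70 to 7.58 RPKM in TPEN, a log2 fold change of 0.58 ± 0.06 that was under 1.5-fold. None of the 11 bipolar genes, 4 endothelial and pericyte genes, 11 proliferation genes or 7 heat shock and crystallin genes tested was called. Mki67 and Top2a, of the proliferation list, did not pass the filter, so the test does not cover them. Mki67 had 30 reads over the 3 Ctrl libraries and 246 over the 3 TPEN libraries, and Top2a had 8 and 113. Every TPEN library of these 2 genes was above every Ctrl library. ONC had 157, 216 and 173 reads of Mki67 and 123, 86 and 90 of Top2a. Of 5 astrocyte genes Gfap and Aldh1l1 were called higher, and 1 of the 5 without Ctrl replicate 1. The fibroblast list had no gene above the filter.

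Among symbols of predicted genes and microRNA genes that averaged 1 RPKM or more, the largest increases were those of Mir5101 and Gm37904. Mir5101 read 2.69, 1.04 and 0 RPKM in Ctrl and 32.6, 21.7 and 34.4 RPKM in TPEN. It lies within Syne2, and its Ctrl values rest on 5, 2 and 0 reads over a length of 83 bases, so its log2 fold change of 5.41 ± 0.95 is loosely set. Its reads cannot be told from those of its host gene. Gm37904 rose by 2.34 ± 0.32 in TPEN/Ctrl. With those symbols set aside, the 12 largest increases among genes that averaged 1 RPKM or more also held Lad1, Gadd45b and Bin2. Lad1, ladinin 1, read 1.71, 2.21 and 1.92 RPKM in Ctrl and 17.6, 19.9 and 17.0 RPKM in TPEN, a log2 fold change of 3.16 ± 0.09. Gadd45b, a stress-induced gene, and Bin2, a membrane-bending protein of myeloid cells, rose by 2.89 ± 0.11 and 2.76 ± 0.26.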

How the data were processed

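Libraries came from sorted retinal cells and were made with a stranded mRNA kit with 8-base UMIs from 2 μg RNA. The authors trimmed with Trimmomatic 0.36, aligned to GRCm38 with STAR 2.5.3a and deposited RPKM values per gene; their table also held fold changes, p-values and FDR of their own, which were not used. The counting program, strand setting, UMI use and annotation are not given in the sources used here. All RPKM values were whole multiples of 1 read (100%, tolerance 0.01), which gave reads per gene and library totals; 64.1 to 70.4% of values of 1 to 20 reads were even, so read pairs may partly count as 2. Counting error covers sampling of reads only.

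Of 15228 genes, the 13566 whose mean across the 9 libraries reached 0.5 RPKM entered limma 3.58.1 (R 4.3.3) as log2(RPKM + 0.1), with 1 coefficient per group and a variance trend. Adjustment was by Benjamini-Hochberg across these genes. The filter mean included the crushed groups, so genes low in Ctrl could pass through the groups where they were high. Counts of increases in the lists were partly set by it. The fit was tested on simulated data. Positions are those of the files (GRCm38). Words of 31 bases were compared over GENCODE vM21 transcripts, and promoters came from RefSeq (GRCm38.p6). Named genes were the 12 largest increases and 8 largest decreases, the 8 increases within 0.2 of ONC and 6 remaining decreases. Added were up to 8 and 6 of each class called only here or apart from both groups, and 2 predicted symbols each way. Ranks were taken among genes of at least 1 RPKM whose groups did not overlap, with predicted, Rik and Mir symbols set aside. Further named genes were Oma1, Opa1, Yme1l1, Dnm1l, Atf4, Eif2ak1 to Eif2ak4 and members of 29 lists. Single values of some listed genes are not reported here. The members and lists were chosen with earlier results of these data known. Alternatives changed the normalization, filter, pseudocount, libraries, block, test and fold, and left out each library.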

Additional observations from a re-analysis of the deposited data

How the results depend on the processing

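The counts depended most on the fold threshold and on the treatment of low genes. In the order higher, lower, remaining higher, remaining lower, this pair alone higher and lower, and TPEN apart from both groups higher and lower, the reported analysis called 468, 62, 383, 17, 51, 28, 34 and 17 genes. Genes counted as apart from, or higher than, both groups were not called in ONC/Ctrl in the same direction. A test against 1.5-fold called 148, 11, 140, 0, 8, 2, 0 and 9. A threshold of 2-fold called 223 and 20 genes, of which 205 and 1 remained from ONC, 15 and 6 were called in this pair alone and 3 were higher than both groups. A pseudocount of 1 RPKM gave 247 and 34, with 204 and 6 remaining, 28 and 16 in this pair alone and 15 higher than both. Quantile normalization gave 372 higher and 102 lower genes, with 26 remaining decreases and 57 decreases in this pair alone. Without a filter on low genes 686 and 76 were called. Voom on whole reads gave 533 and 86, with 26 remaining decreases, a mean of 1 RPKM or more gave 338 and 46, with 9 remaining decreases, and the 6 libraries alone gave 425 and 62. Without single libraries the counts were 431 to 459, 57 to 73, 349 to 372, 12 to 18, 47 to 64, 27 to 39, 25 to 36 and 15 to 22. Replicate numbers did not pair the libraries: correlations of deviations between same-numbered libraries were -0.062 to 0.027, and the fit with the replicate block called 447 and 62 genes. Of 3154 values of 177 genes under the alternatives, 2892 kept direction and call, 241 lost the call, 8 gained it and 13 turned direction. With quantile normalization these were Thbs1 (-0.30), Cxcl2 (-0.28), Il1b (-0.31), C3 (-0.19), Lgals3 (-0.17), Yme1l1 (-0.00302) and Dnm1l (-0.010). Without single libraries Yme1l1 ranged from -0.042 to 0.041 and Dnm1l from -0.037 to 0.043. The cause of these shifts was not tested. Low levels limit the precision, since a gene at 0 reads may have up to 3 per library.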
